A study of Mus musculus with 8 samples.

Results

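The genes described are 10 genes of the circadian clock, Dbp, Tef, Hlf, Per1, Per2, Per3, Ciart, Nr1d1, Nr1d2 and Arntl, of 16547 genes measured in all 8 libraries. They were picked by symbol, knowing from these same libraries that several of them differed between groups, so their levels and fold changes are given as a description and carry no p-value. The libraries came from mouse hearts after ischemia-reperfusion, in which blood flow is stopped and then restored. All 4 groups had this injury, and no uninjured heart was analysed here. The 3 nanocage groups received iFTn-MR4, iFTn-R4 or iFTn-M4, engineered protein nanocages that carry an enzyme-like activity against superoxide, as 2 doses of 2.5 mg/kg protein on alternate days. The fourth group received PBS, the buffer control, and RNA was taken after 3 days. Each group had 2 libraries. The labels give neither strain, age nor sex of the mice, and do not say whether the 2 libraries of a group came from separate animals, so the spread between them may be technical.

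The circadian clock is a loop of transcription factors that most cells run with a period of about a day. The activator BMAL1, encoded by Arntl, pairs with CLOCK and binds E-box sequences in the promoters of the Per, Cry, Nr1d and Ciart genes and of Dbp, whose products rise and in turn hold the activators back. The NR1D receptors (REV-ERB alpha and beta) repress Arntl through ROR elements, and DBP, TEF and HLF activate genes with D-box sequences, among them Per genes. Dbp and Nr1d1 transcripts therefore swing widely over the day in mouse heart, and Arntl peaks at roughly the opposite time. The hour at which the hearts were taken is not in the labels, so a difference between groups and a difference in the time of collection cannot be told apart.

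Promoter sequences of the clock genes were searched for the elements through which the loop is read. RefSeq (build GRCm38.p6) held the 250 bases before the start site for 9 of the 10 genes, all but Per2. E-boxes were searched as CACGTG, variant E-boxes as CACGTT or AACGTG, D-boxes as TTATGTAA, TTACATAA or TTACGTAA, and the core of the ROR element as TAGGTCA or TGACCTA, which covers both strands. Each sequence is written 5′ to 3′ on the strand of its gene and ends at the base before the start site, with the matches in capitals. The Ciart promoter (minus strand, chr3:95882229-95882478) held 3 E-boxes, and is shown because Ciart is the member with most of them.
Ciart: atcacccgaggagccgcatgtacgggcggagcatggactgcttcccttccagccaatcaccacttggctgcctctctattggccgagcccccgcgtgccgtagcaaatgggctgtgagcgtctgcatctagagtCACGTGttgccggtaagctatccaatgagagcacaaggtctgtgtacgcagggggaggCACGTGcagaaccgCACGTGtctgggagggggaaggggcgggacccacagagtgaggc
Per1 (plus strand, chr11:69098699-69098948), the member that stood high in iFTn-M4 hearts and not in iFTn-MR4 hearts, held 1 E-box before the first of the 2 start sites searched.
Per1: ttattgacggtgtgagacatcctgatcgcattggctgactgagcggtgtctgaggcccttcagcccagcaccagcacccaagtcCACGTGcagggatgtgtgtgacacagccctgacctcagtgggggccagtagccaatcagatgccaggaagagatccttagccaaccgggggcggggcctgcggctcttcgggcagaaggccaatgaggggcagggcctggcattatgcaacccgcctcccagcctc
Per3 (minus strand, chr4:151044666-151044915), which was high in both iFTn-MR4 and iFTn-M4 hearts, held 2 D-boxes.
Per3: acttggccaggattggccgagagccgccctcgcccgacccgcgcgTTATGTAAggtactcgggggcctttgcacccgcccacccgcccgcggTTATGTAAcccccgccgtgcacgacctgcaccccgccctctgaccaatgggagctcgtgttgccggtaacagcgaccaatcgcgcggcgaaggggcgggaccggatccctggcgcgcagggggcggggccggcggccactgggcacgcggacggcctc
Nr1d1 (minus strand, chr11:98775378-98775627) held 1 variant E-box close to its start.
Nr1d1: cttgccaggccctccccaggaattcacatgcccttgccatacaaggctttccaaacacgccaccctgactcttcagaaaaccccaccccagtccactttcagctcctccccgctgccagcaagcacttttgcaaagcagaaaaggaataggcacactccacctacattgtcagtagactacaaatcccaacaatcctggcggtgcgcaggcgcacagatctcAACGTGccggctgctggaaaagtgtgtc
Tef held 1 E-box before each of its 2 start sites, and none of the searched letters lay in the windows of Dbp, Hlf, Nr1d2 and Arntl. No window searched held the core of the ROR element. The windows of Per1 and Arntl lie inside the gene spans given below, and those of Dbp, Per3 and Ciart reach into them. Any start further upstream was thus not searched, nor were bases past the start site or other spellings of these elements. Over 27025 mouse promoters of the same length, 6.05% held an E-box, 3.93% a variant E-box, 0.962% a D-box and 2.27% the core of the ROR element. A match is a description of the letters and not a site at which binding was measured.

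Libraries held 13618588 to 15729385 expected counts (read counts that RSEM estimates per gene), with 15525 to 15851 genes detected. Levels below are in CPM (counts relative to library size, scaled by the TMM method), with means ± SD of 2 libraries, and fold changes are on the log2 scale ± SE, taken from 1 quasi-likelihood fit in edgeR that held the 8 libraries. A gene is counted as called where its Benjamini-Hochberg adjusted p was under 0.05 over 13953 tested genes. PBS values come from 1 deposited table and nanocage values from another, so a difference between these groups and one between the tables cannot be told apart. Heart muscle markers showed the labelled tissue: 6 of 6 cardiomyocyte genes were measured, and their summed level was 49391 and 47586 CPM in iFTn-MR4, 27817 and 28274 in iFTn-R4, 40713 and 44439 in iFTn-M4, and 29712 and 29522 in PBS. Of these genes 4 rose in iFTn-MR4, 2 rose and 2 fell in iFTn-R4, and 4 rose in iFTn-M4, each against PBS (edgeR). The 4 were Myh6, Pln, Ttn and Ryr2 in both iFTn-MR4 and iFTn-M4. The largest part of the sum is Myh6, with means of 28286 CPM in iFTn-MR4, 12810 in iFTn-R4, 24833 in iFTn-M4 and 14789 in PBS. Tnnt2 averaged 5930, 4725 and 5763 CPM in iFTn-MR4, iFTn-R4 and iFTn-M4, against 6107 CPM in PBS, and Actn2 1905, 1536 and 1675 CPM, against 2010 CPM in PBS. The summed level of 5 fibroblast markers was 3697 to 4116 CPM in iFTn-MR4, 3668 to 4929 in iFTn-R4, 4488 to 5386 in iFTn-M4 and 2835 to 2852 in PBS. That of 4 neutrophil markers was 35.6 to 40.8 CPM in iFTn-MR4, 92.5 to 123.8 in iFTn-R4, 33.8 to 61.0 in iFTn-M4 and 114.5 to 131.4 in PBS. In whole tissue, fewer cells of a type and less RNA per cell cannot be told apart, and the part of this cell mixture in the clock gene levels was not tested.

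All 10 clock genes passed the filter on low counts. Per transcript length, in TPM, their order over the 8 libraries was Nr1d1 (median 90.9, range 42.8 to 149.1), Dbp (90.2, 24.8 to 149.9), Tef (67.5), Nr1d2 (59.5), Per1 (15.5), Per3 (13.8), Arntl (9.46), Hlf (8.82), Per2 (7.86) and Ciart (4.49, 2.28 to 8.65). The first 4 lay above the rest in median, while neighbours in this order overlapped over the libraries. Dbp had the widest range in absolute TPM and in fold. Ciart had the fewest counts, 30 to 105 in a library, and Arntl followed with 128 to 397. The SE of a log2 fold change was largest for Dbp (0.33 to 0.35), Ciart (0.31 to 0.34) and Arntl (0.31 to 0.33).

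Against PBS, Dbp, Tef, Hlf, Per3, Nr1d1 and Nr1d2 were higher in iFTn-MR4 and iFTn-M4 hearts, by about 2-fold, and nearer to PBS in iFTn-R4 hearts. In iFTn-MR4, 6 of 10 members were called higher and 0 lower (24.6% of all tested genes were called higher), with a median log2 fold change of 0.97 against 0.00 over all genes. In iFTn-R4 1 of 10 was called higher and 0 lower (13.9% of all genes higher), with a median of 0.24. In iFTn-M4 8 of 10 were called higher and 0 lower (19.8% of all genes higher), with a median of 0.91. Without PBS replicate 1 the count in iFTn-M4 was 5, and that in iFTn-R4 was 0 without either PBS library and 2 without either iFTn-M4 library. Both libraries lay above both PBS libraries for 7 members in iFTn-MR4 (39.3% of all genes), 4 in iFTn-R4 (31.8%) and 9 in iFTn-M4 (37.3%). These 3 comparisons share their PBS libraries. Since the members were chosen from these contrasts, nothing is read from the counts.

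**Figure D1:**
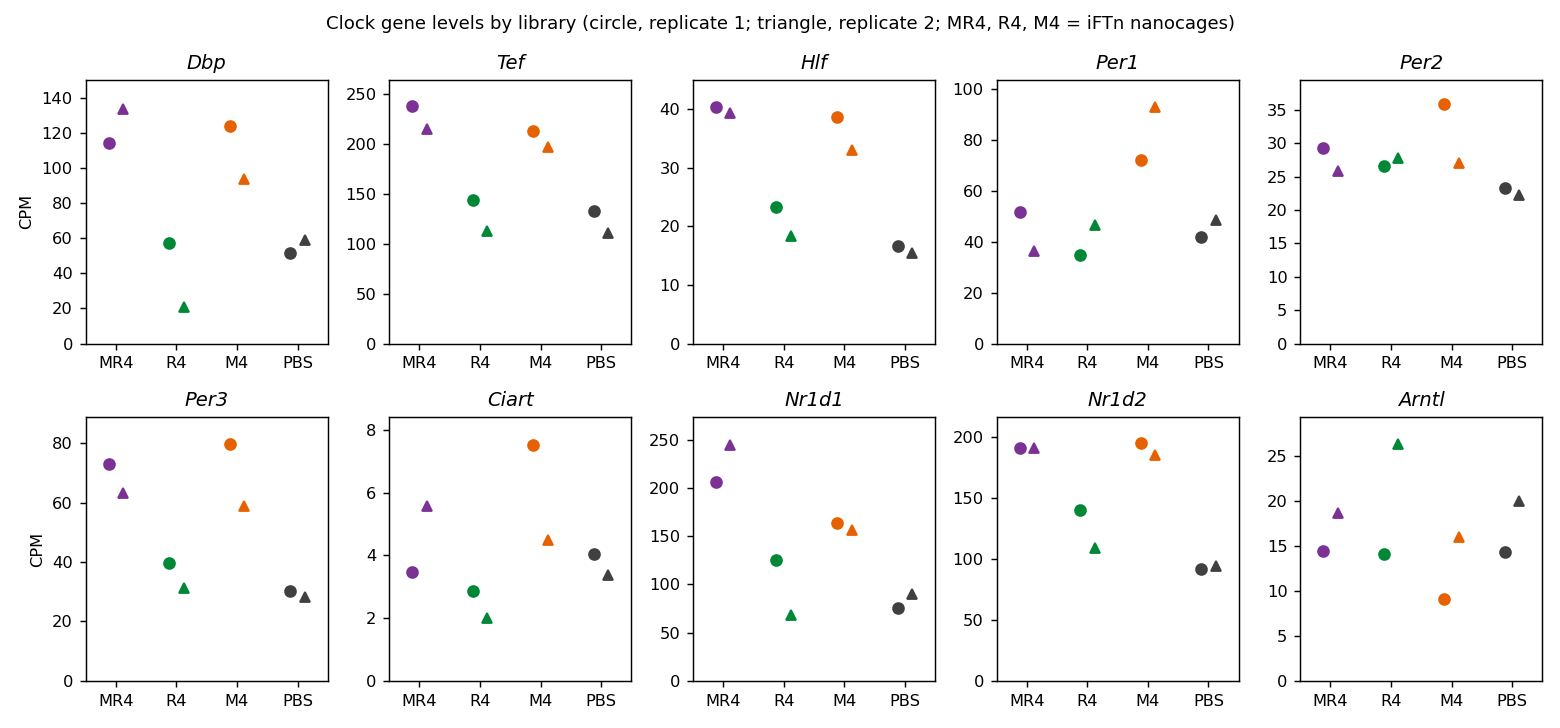
CPM (vertical axes, from 0) of the 10 clock genes in each of the 8 libraries, by group, with circles for replicate 1 and triangles for replicate 2. Dbp, Tef, Hlf, Per3, Nr1d1 and Nr1d2 stand higher in both iFTn-MR4 and both iFTn-M4 libraries than in PBS and iFTn-R4, Per1 is high in iFTn-M4 alone, and the highest Arntl level, 26.3 CPM, is that of iFTn-R4 replicate 2.

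Dbp, Tef and Hlf encode the 3 activators of the PAR bZIP family, which carry clock timing to metabolic and detoxifying genes. Dbp (Entrez gene 13170, chromosome 7, 45705100 to 45710203 of GRCm38.p6, plus strand) had 114.1 and 133.4 CPM in iFTn-MR4, 57.3 and 20.6 CPM in iFTn-R4, 123.9 and 93.8 CPM in iFTn-M4, and 51.6 and 59.2 CPM in PBS. Both iFTn-MR4 and both iFTn-M4 libraries were above all others, 1 iFTn-R4 library lay within the PBS range and the other below it. The means were 123.8 ± 13.6, 39.0 ± 25.9 and 108.8 ± 21.3 CPM in iFTn-MR4, iFTn-R4 and iFTn-M4, against 55.4 ± 5.32 CPM in PBS, which made log2 fold changes over PBS of 1.16 ± 0.33, -0.50 ± 0.35 and 0.97 ± 0.33. Its calls were unsteady, since those of iFTn-MR4 and iFTn-M4 over PBS both ended in DESeq2 and with either PBS library left out. That of iFTn-MR4 ended also without iFTn-MR4 replicate 2, and that of iFTn-M4 without either iFTn-M4 or either iFTn-MR4 library and in limma-trend on TPM, while the log2 fold change stayed between 0.77 and 1.26 over these settings.

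Tef (Entrez gene 21685, chromosome 15, 81802673 to 81826863, plus strand) had 238.1 and 214.9 CPM in iFTn-MR4, 143.8 and 112.6 CPM in iFTn-R4, 212.6 and 197.1 CPM in iFTn-M4, and 132.8 and 111.0 CPM in PBS. The iFTn-R4 and PBS libraries overlapped, and the other 4 lay above them. Its log2 fold changes over PBS were 0.89 ± 0.13, 0.07 ± 0.13 and 0.75 ± 0.13 for iFTn-MR4, iFTn-R4 and iFTn-M4. Hlf (Entrez gene 217082, chromosome 11, 90336535 to 90390917, minus strand) had 40.4 and 39.3 CPM in iFTn-MR4, 23.3 and 18.4 CPM in iFTn-R4, 38.6 and 33.0 CPM in iFTn-M4, and 16.6 and 15.4 CPM in PBS. Here the groups did not overlap, with iFTn-MR4 highest, then iFTn-M4, iFTn-R4 and PBS. Its log2 fold changes over PBS were 1.31 ± 0.13, 0.38 ± 0.13 and 1.16 ± 0.13, so that Hlf in iFTn-MR4 stood 2.49-fold above PBS.

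Per1, Per2 and Per3 encode the PERIOD repressors of the loop. Per1, which also answers quickly to glucocorticoid and other acute signals, had 51.5 and 36.3 CPM in iFTn-MR4, 34.7 and 46.6 CPM in iFTn-R4, 72.1 and 92.9 CPM in iFTn-M4, and 41.9 and 48.5 CPM in PBS. Both iFTn-M4 libraries lay above all others, which overlapped. Over PBS its log2 fold changes were -0.04 ± 0.19, -0.15 ± 0.19 and 0.87 ± 0.19 for iFTn-MR4, iFTn-R4 and iFTn-M4, and the iFTn-M4 call ended without iFTn-M4 replicate 2. Between nanocages, Per1 was lower in iFTn-MR4 than in iFTn-M4 by a log2 fold change of -0.91 ± 0.19, not called in edgeR but called in DESeq2. Per1 lies on chromosome 11, 69095108 to 69109965, plus strand (Entrez gene 18626).

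Per3 (Entrez gene 18628, chromosome 4, 150997018 to 151044707, minus strand), the PERIOD gene whose loss is known to disturb the core rhythm least in mice, followed Dbp, Tef and Hlf and not Per1. It had 73.0 and 63.1 CPM in iFTn-MR4, 39.8 and 31.2 CPM in iFTn-R4, 79.6 and 58.7 CPM in iFTn-M4, and 30.4 and 28.2 CPM in PBS. Both iFTn-R4 libraries lay just above PBS and well below the other nanocages. Its log2 fold changes over PBS were 1.22 ± 0.16, 0.28 ± 0.16 and 1.24 ± 0.16 for iFTn-MR4, iFTn-R4 and iFTn-M4. Per2 (Entrez gene 18627, chromosome 1, 91415977 to 91459351, minus strand) differed little, with 29.3 and 25.8 CPM in iFTn-MR4, 26.6 and 27.8 CPM in iFTn-R4, 35.9 and 27.0 CPM in iFTn-M4, and 23.3 and 22.2 CPM in PBS. All 6 nanocage libraries lay above both PBS libraries, and the nanocage groups overlapped. Per2 has one of the longest transcripts here, with an effective length of 5426 bases. Its log2 fold changes over PBS of 0.27 ± 0.14, 0.26 ± 0.13 and 0.47 ± 0.13 became 0.01, 0.02 and 0.22 when the trend of counts with transcript length was removed. The same correction took Per3 (5648 bases) to 0.94, 0.03 and 0.98 in iFTn-MR4, iFTn-R4 and iFTn-M4. It took Hlf (5148 bases) to 1.07, 0.17 and 0.94. The iFTn-M4 call of Per2 ended with that correction, without either PBS library and without iFTn-M4 replicate 1.

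The proportions of the PERIOD transcripts differed between groups. The log2 ratio of Per1 to Per3 within a library, in TPM, was -0.15 and -0.46 in iFTn-MR4, 0.15 and 0.91 in iFTn-R4, 0.19 and 1.01 in iFTn-M4, and 0.82 and 1.13 in PBS. Per3 exceeded Per1 in both iFTn-MR4 libraries and in no other. Ciart encodes the repressor CHRONO, which binds BMAL1 (Entrez gene 229599, chromosome 3, 95878500 to 95882257, minus strand). It had 3.48 and 5.57 CPM in iFTn-MR4, 2.88 and 1.99 CPM in iFTn-R4, 7.51 and 4.48 CPM in iFTn-M4, and 4.04 and 3.37 CPM in PBS. Both iFTn-R4 libraries lay below both PBS libraries and both iFTn-M4 libraries above them, and no comparison of Ciart was called in edgeR. Its log2 fold changes over PBS were 0.29 ± 0.33, -0.60 ± 0.34 and 0.69 ± 0.32 for iFTn-MR4, iFTn-R4 and iFTn-M4. With the correction for transcript length, the iFTn-M4 value was 0.93 and was called. In iFTn-R4 against iFTn-M4 the log2 fold change of Ciart was -1.29 ± 0.33, called in DESeq2 and without the filter on low counts.

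**Figure D2:**
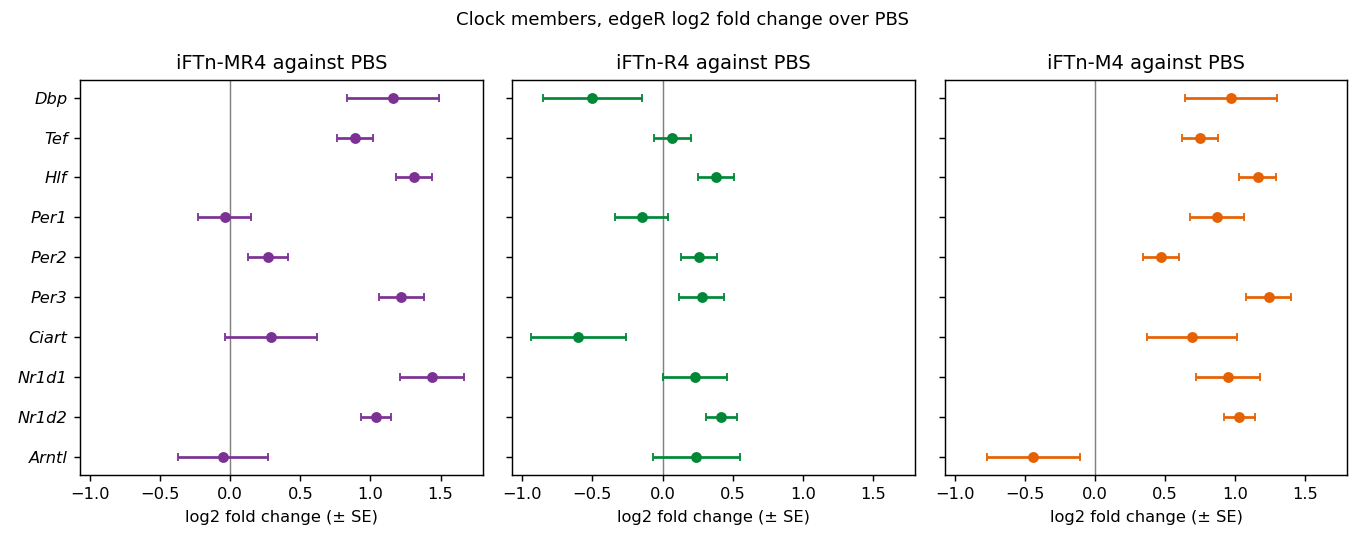
Log2 fold change over PBS (horizontal axes) with its SE (bars) for the 10 clock genes, in iFTn-MR4, iFTn-R4 and iFTn-M4 hearts (panels, left to right), from edgeR's fit of 8 libraries. The points of iFTn-MR4 and iFTn-M4 lie near 1 for Dbp, Tef, Hlf, Per3, Nr1d1 and Nr1d2, those of iFTn-R4 lie between -0.60 and 0.42, and Per1 is near 1 in iFTn-M4 alone.

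Nr1d1 and Nr1d2 encode the haem-binding nuclear receptors REV-ERB alpha and beta, the repressors of Arntl. Nr1d1 (Entrez gene 217166, chromosome 11, 98767932 to 98775377, minus strand) had 206.3 and 244.2 CPM in iFTn-MR4, 125.4 and 68.2 CPM in iFTn-R4, 163.6 and 156.0 CPM in iFTn-M4, and 75.5 and 90.1 CPM in PBS. Both iFTn-MR4 libraries were highest, both iFTn-M4 libraries next, and the iFTn-R4 libraries lay on either side of PBS. The group means were 225.2 ± 26.8, 96.8 ± 40.4 and 159.8 ± 5.38 CPM, against 82.8 ± 10.3 CPM in PBS, with log2 fold changes over PBS of 1.44 ± 0.23, 0.23 ± 0.23 and 0.95 ± 0.23. The iFTn-M4 call ended without PBS replicate 1. Nr1d2 (Entrez gene 353187, chromosome 14, 18204056 to 18239106, minus strand) had 191.2 CPM in both iFTn-MR4 libraries, 139.9 and 108.8 CPM in iFTn-R4, 195.2 and 185.5 CPM in iFTn-M4, and 91.8 and 94.2 CPM in PBS. Its libraries were 1.29-fold apart in iFTn-R4 and closer in the other groups, iFTn-R4 lay between PBS and the other nanocages, and iFTn-MR4 and iFTn-M4 overlapped. Its log2 fold changes over PBS were 1.04 ± 0.11, 0.42 ± 0.11 and 1.03 ± 0.11 for iFTn-MR4, iFTn-R4 and iFTn-M4. The iFTn-R4 value, the 1 member call of that comparison, was 0.26 and no longer called with the length correction, and its call ended also with either PBS library or iFTn-R4 replicate 1 left out and with only the 2 groups fitted.

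Arntl, the activator whose transcript runs opposite to Dbp and Nr1d1 over a normal day, overlapped between all groups. It had 14.4 and 18.7 CPM in iFTn-MR4, 14.1 and 26.3 CPM in iFTn-R4, 9.16 and 16.0 CPM in iFTn-M4, and 14.3 and 20.0 CPM in PBS. The lowest level was that of iFTn-M4 replicate 1 and the highest that of iFTn-R4 replicate 2. Over PBS its log2 fold changes were -0.05 ± 0.32, 0.24 ± 0.31 and -0.44 ± 0.33 for iFTn-MR4, iFTn-R4 and iFTn-M4. Arntl lies on chromosome 7, 113178471 to 113314126, plus strand (Entrez gene 11865).

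Some clock genes overlap other transcripts, and the sources used here do not state whether counting used strand. Dbp shares 741 bases with Sphk2, a sphingosine kinase gene on the opposite strand that averaged 18.2 TPM and had log2 fold changes over PBS of -0.16 ± 0.12, -0.26 ± 0.12 and -0.09 ± 0.12 in iFTn-MR4, iFTn-R4 and iFTn-M4. Nr1d1 shares 1075 bases with Thra, the thyroid hormone receptor alpha gene on the opposite strand, which averaged 68.8 TPM and had log2 fold changes of 0.78 ± 0.09, 0.48 ± 0.09 and 0.61 ± 0.09 in the same order. The Nr1d1 values therefore stand beside a neighbour that was higher in all 3 nanocage groups, and reads of the shared stretch cannot be told apart. No member had counts split with near-identical copies.

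The ratio of 2 clock genes within a library needs no scaling between libraries or tables, but it keeps any trend of counts with transcript length. The log2 ratio of Dbp to Arntl, in TPM, was 3.94 and 3.78 in iFTn-MR4, 2.96 and 0.62 in iFTn-R4, 4.64 and 3.49 in iFTn-M4, and 2.80 and 2.55 in PBS. On a linear scale Dbp was 15.4 and 13.8 times Arntl in iFTn-MR4, 7.78 and 1.53 times in iFTn-R4, 25 and 11.2 times in iFTn-M4, and 6.98 and 5.85 times in PBS. Both iFTn-MR4 and both iFTn-M4 libraries lay above PBS, while the iFTn-R4 libraries lay on either side of it. The log2 ratio of Nr1d1 to Arntl gave the same layout, with 3.91 and 3.78 in iFTn-MR4, 3.19 and 1.45 in iFTn-R4, 4.15 and 3.33 in iFTn-M4, and 2.45 and 2.26 in PBS. The log2 ratio of Per2 to Arntl was -0.03 and -0.64 in iFTn-MR4, -0.18 and -1.0 in iFTn-R4, 0.81 and -0.34 in iFTn-M4, and -0.36 and -0.92 in PBS. Here the iFTn-M4 libraries lay above PBS by a narrow margin, and every other pair of groups overlapped. The Per2 to Arntl ratio is given without the length correction, which took the Per2 log2 fold change of iFTn-M4 over PBS from 0.47 to 0.22. Against Nfil3, the repressor that competes with DBP for D-boxes, the log2 ratio of Dbp was 3.69 and 3.87 in iFTn-MR4, 2.06 and 0.22 in iFTn-R4, 3.95 and 3.60 in iFTn-M4, and 1.33 and 1.78 in PBS. This was the widest gap between groups, since Dbp and Nfil3 differed in opposite directions.

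**Figure D3:**
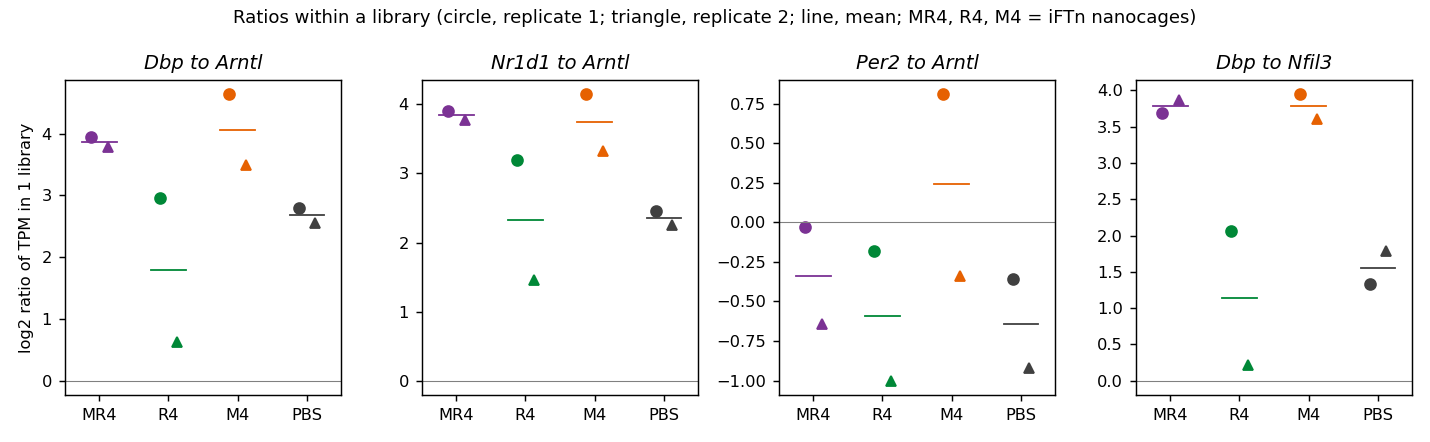
Log2 ratio of TPM between 2 clock genes within each library (vertical axes), by group, with circles for replicate 1, triangles for replicate 2 and a line at the group mean. The Dbp to Arntl ratio averages 3.86 in iFTn-MR4, 1.79 in iFTn-R4, 4.06 in iFTn-M4 and 2.68 in PBS, and the 2 iFTn-R4 libraries lie on either side of PBS in it.

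Between nanocages, Dbp, Tef, Hlf, Per3 and Nr1d2 were lower in iFTn-R4 than in both iFTn-MR4 and iFTn-M4. Set against iFTn-R4, 6 of 10 clock genes were called higher in iFTn-MR4 and 0 lower (12.6% of all tested genes were called higher), with a median log2 fold change of 0.86 against -0.01 over all genes. These were Dbp (1.66 ± 0.34), Tef (0.82 ± 0.13), Hlf (0.93 ± 0.12), Per3 (0.94 ± 0.16), Nr1d1 (1.22 ± 0.22) and Nr1d2 (0.62 ± 0.11). Against iFTn-M4, 6 were called lower in iFTn-R4 and 0 higher (2.5% of all genes were called lower), namely Dbp (-1.48 ± 0.34), Tef (-0.68 ± 0.13), Hlf (-0.77 ± 0.12), Per1 (-1.02 ± 0.19), Per3 (-0.96 ± 0.16) and Nr1d2 (-0.61 ± 0.11). That count is less steady than its size, since 1 of 10 was called lower without iFTn-M4 replicate 1, without iFTn-M4 replicate 2 and with only the 2 groups fitted. In iFTn-MR4 against iFTn-M4, 0 of 10 were called in edgeR, where 0.366% of all genes were called in either direction, 2 had an unadjusted p under 0.05, DESeq2 called 1 and limma-trend 0. There 1 was called higher and 1 lower without either iFTn-R4 library and with only the 2 groups fitted. The Dbp call of iFTn-R4 against iFTn-M4 ended in DESeq2, in limma-trend, with only the 2 groups fitted and without any 1 library of PBS, iFTn-M4 or iFTn-MR4, while its log2 fold change stayed between -1.25 and -1.66 over these settings. That of iFTn-MR4 against iFTn-R4 ended without iFTn-MR4 replicate 2, at 1.54. The largest differences between iFTn-MR4 and iFTn-M4 were Per1 (-0.91 ± 0.19) and Nr1d1 (0.50 ± 0.22). These 3 comparisons reuse the same libraries in pairs. Since the members were chosen with differences between these groups known, nothing is read from these counts either.

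The largest distances between the 2 libraries of a group were in iFTn-R4. The median over the 10 members was 1.31-fold in both iFTn-R4 and iFTn-M4, 1.17-fold in iFTn-MR4 and 1.15-fold in PBS. Dbp differed 2.77-fold between its iFTn-R4 libraries, with replicate 1 higher, and 0.688% of all tested genes lay as far apart there. Nr1d1 differed 1.84-fold, also higher in replicate 1 (3.65% of genes), and Arntl 1.86-fold, higher in replicate 2 (3.34% of genes). Arntl was higher in replicate 2 in each of the 4 groups, by 1.3-fold in iFTn-MR4, 1.86-fold in iFTn-R4, 1.74-fold in iFTn-M4 and 1.39-fold in PBS, so its direction is not particular to the iFTn-R4 pair. Tef, Hlf and Per3 were higher in replicate 1 in each of the 4. At least 1.5-fold apart were 1 of 10 members in iFTn-MR4 (5.73% of all genes), 3 in iFTn-R4 (8.92%), 2 in iFTn-M4 (5.11%) and 0 in PBS (5.93%). In the iFTn-M4 pair Ciart was 1.66-fold and Dbp 1.32-fold higher in replicate 1. Of the 10 members, 5 were higher in replicate 1 in iFTn-MR4, 7 in iFTn-R4, 8 in iFTn-M4 and 5 in PBS. Time of collection of the single hearts is not in the labels, and its part in these distances was not tested.

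**Figure D4:**
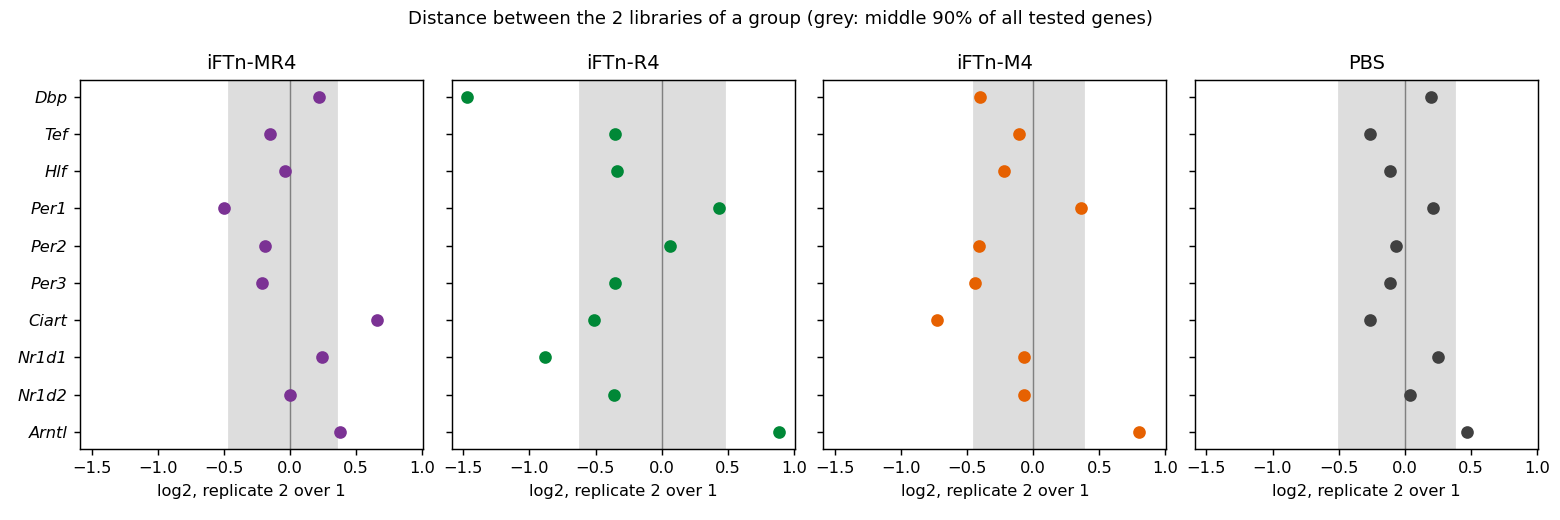
Log2 difference between replicate 2 and replicate 1 (horizontal axes) for each clock gene in the 4 groups (panels), with a grey band that holds the middle 90% of all tested genes. In iFTn-R4, Dbp (-1.47) and Nr1d1 (-0.88) lie left of the band, and Arntl lies right of it in all 4 groups, at 0.38 in iFTn-MR4, 0.89 in iFTn-R4, 0.80 in iFTn-M4 and 0.47 in PBS.

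Because the iFTn-R4 libraries differed, its values depend on which is kept. Without replicate 1 the log2 fold change of Dbp over PBS was -1.43, and without replicate 2 it was 0.03, around the joint value of -0.50. For Nr1d1 the same values were -0.29 and 0.59, and for Arntl 0.61 and -0.29. In iFTn-R4 against PBS 0 members were called higher and 1 lower without replicate 1, against 3 higher and 0 lower without replicate 2. Against iFTn-M4, Dbp was lower in iFTn-R4 with either library alone, at -2.40 without replicate 1 and -0.93 without replicate 2, and in iFTn-MR4 against iFTn-R4 it was higher, at 2.59 and 1.12. The level of iFTn-R4 below the other nanocages is thus present in both of its libraries for Dbp, while its place relative to PBS is not fixed by them.

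The clock genes outside the 10 members, 17 activators, repressors, receptors and turnover factors of which all 17 were tested, had medians nearer to that of all genes. Against PBS 7 rose and 3 fell in iFTn-MR4 (24.6% of all genes rose and 26.3% fell). In iFTn-R4 4 rose and 1 fell (13.9% and 15.4%), and in iFTn-M4 5 rose and 3 fell (19.8% and 21.4%). Those median log2 fold changes were 0.15, 0.21 and 0.08, against 0.00 over all genes. This list and those below were also chosen with earlier results of these data known. Their adjusted p-values are therefore not an independent test of the clock gene levels. Nfil3, which encodes the D-box repressor E4BP4, had 11.7 and 12.2 CPM in iFTn-MR4, 18.1 and 23.7 CPM in iFTn-R4, 10.6 and 10.3 CPM in iFTn-M4, and 26.3 and 22.5 CPM in PBS. Both iFTn-MR4 and both iFTn-M4 libraries lay below the others, and iFTn-R4 overlapped PBS. Nfil3 fell in iFTn-MR4 (log2 fold change -1.03 ± 0.15, edgeR adjusted p = 0.000384) and in iFTn-M4 (-1.23 ± 0.15, edgeR adjusted p = 0.000264) and did not pass in iFTn-R4 (-0.23 ± 0.14, adjusted p = 0.235). Between nanocages Nfil3 was lower in iFTn-MR4 than in iFTn-R4 (-0.80 ± 0.15, edgeR adjusted p = 0.00463) and higher in iFTn-R4 than in iFTn-M4 (1.0 ± 0.15, edgeR adjusted p = 0.00733, or 0.0829 without iFTn-M4 replicate 2).

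Cry2, a cryptochrome repressor and partner of the PERIOD proteins, had 41.0 and 41.6 CPM in iFTn-MR4, 29.6 and 29.8 CPM in iFTn-R4, 37.9 and 36.0 CPM in iFTn-M4, and 26.7 and 23.5 CPM in PBS. Its groups did not overlap, in the same order as those of Hlf. Cry2 rose in iFTn-MR4 (log2 fold change 0.72 ± 0.09, edgeR adjusted p = 0.000179) and iFTn-M4 (0.56 ± 0.09, edgeR adjusted p = 0.00115), did not pass in iFTn-R4 (0.24 ± 0.09), and was higher in iFTn-MR4 than in iFTn-R4 (0.48 ± 0.09, edgeR adjusted p = 0.00463). Rora, the receptor that activates Arntl through the elements NR1D proteins block, rose in all 3 groups, by 0.85 ± 0.09 in iFTn-MR4, 0.67 ± 0.09 in iFTn-R4 and 0.79 ± 0.09 in iFTn-M4 (edgeR adjusted p = 7.21e-05, 0.00122 and 0.000194). Timeless, a replication fork gene named for its fly relative, fell in iFTn-MR4 (-0.59 ± 0.11, edgeR adjusted p = 0.00206) and in iFTn-M4 (-0.47 ± 0.11, edgeR adjusted p = 0.0088, or 0.0878 without iFTn-M4 replicate 2 and 0.112 in limma-trend).

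Clock itself, the partner of BMAL1, rose in the 3 groups on the count scale, by log2 fold changes of 0.37 ± 0.09 in iFTn-MR4, 0.38 ± 0.09 in iFTn-R4 and 0.28 ± 0.09 in iFTn-M4 (edgeR adjusted p = 0.00912, 0.0149 and 0.036). With the length correction these became -0.08, 0.02 and -0.13 and none passed. The Clock calls were lost also without PBS replicate 1 in all 3 comparisons, and without iFTn-MR4 replicate 2, iFTn-R4 replicate 2 or iFTn-M4 replicate 2 in that group's own. The iFTn-M4 call ended in addition without PBS replicate 2 and in DESeq2. Btrc, a ubiquitin ligase part that marks PERIOD proteins, likewise went to 0.20 in iFTn-MR4 (0.50 ± 0.09 before) and 0.15 in iFTn-M4 (0.43 ± 0.09 before) with that correction, and did not pass. Cry1, the other cryptochrome gene, fell in iFTn-MR4 (-0.57 ± 0.20, edgeR adjusted p = 0.039) and iFTn-M4 (-0.62 ± 0.20, edgeR adjusted p = 0.0338). Both Cry1 calls were lost with the length correction, in limma-trend on TPM and without either PBS library, either iFTn-M4 library or either iFTn-MR4 library. Rorb rose in iFTn-MR4 and Bhlhe41 fell in iFTn-R4, but each call ended with at least 1 library left out. Npas2, Arntl2, Bhlhe40, Csnk1d, Csnk1e and Fbxl21 passed in no comparison with PBS.

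Between nanocages, 2 of the 17 were higher, Cry2 among them, and 2 lower (Nfil3 and Timeless) in iFTn-MR4 than in iFTn-R4. There 12.6% of all genes were called higher and 14.6% lower. Nfil3 alone of the 17 was called in iFTn-R4 against iFTn-M4, where 3.43% of all genes were called higher. The Timeless call was lost without iFTn-MR4 replicate 1, either iFTn-R4 library or PBS replicate 1 and with only the 2 groups fitted. In iFTn-MR4 against iFTn-M4, edgeR called 0 of the 17, with 1 at an unadjusted p under 0.05, and DESeq2 and limma-trend called 0.

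**Figure D5:**
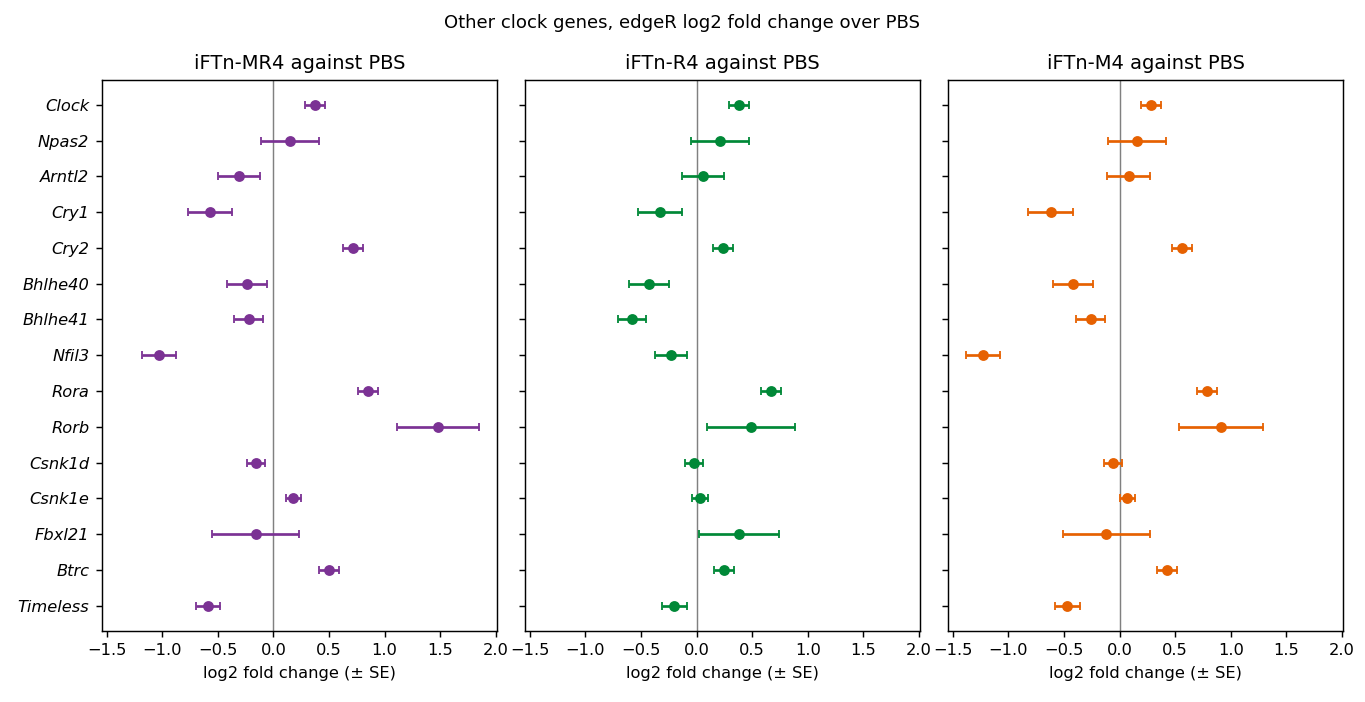
Log2 fold change over PBS (horizontal axes) with its SE (bars) for other clock genes in iFTn-MR4, iFTn-R4 and iFTn-M4 hearts (panels, left to right), from edgeR's fit of 8 libraries. Nfil3 lies at -1.03, -0.23 and -1.23 and Cry2 at 0.72, 0.24 and 0.56, while Rora lies between 0.67 and 0.85 in all 3.

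Genes whose transcripts are known to follow the clock in heart or other tissues were read from a list of 10, of which 9 were measured. Against PBS 4 rose and 3 fell in iFTn-MR4 (all genes: 24.6% up, 26.3% down). The counts were 3 up and 3 down in iFTn-R4 (all genes: 13.9% up, 15.4% down). They were 3 up and 1 down in iFTn-M4 (all genes: 19.8% up, 21.4% down). Median log2 fold changes of the list were 0.06, 0.00 and 0.05 in that order. Kcnip2, the subunit of the transient outward potassium current, had 246.0 and 231.9 CPM in iFTn-MR4, 123.6 and 136.7 CPM in iFTn-R4, 177.2 and 201.5 CPM in iFTn-M4, and 82.8 and 80.8 CPM in PBS. Its 4 groups did not overlap. Kcnip2 rose by 1.55 ± 0.09, 0.67 ± 0.09 and 1.21 ± 0.09 (edgeR adjusted p = 4.27e-06, 0.00126 and 2.55e-05) in iFTn-MR4, iFTn-R4 and iFTn-M4. The summed cardiomyocyte markers given above were highest in iFTn-MR4 and next in iFTn-M4. Of these markers Myh6, Pln, Ttn and Ryr2 rose against PBS in both groups, and Tnnt2 and Actn2 did not. Log2 fold changes in iFTn-MR4 and iFTn-M4 were 0.94 and 0.64 for Pln, 0.77 and 0.54 for Ttn, and 0.95 and 0.76 for Ryr2. The part of these markers in the Kcnip2 levels was not tested. Klf15, the regulator of heart lipid and amino acid rhythms, rose in iFTn-M4 (0.79 ± 0.17, edgeR adjusted p = 0.00536). Its rises in iFTn-MR4 (0.55 ± 0.17) and iFTn-R4 (0.54 ± 0.17) were lost without PBS replicate 1 and without replicate 1 of their own group, and the iFTn-R4 one also without either iFTn-M4 library and with only the 2 groups fitted.

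Dgat2, the last enzyme of triglyceride synthesis, had 316.2 and 312.6 CPM in iFTn-MR4, 167.6 and 177.9 CPM in iFTn-R4, 238.9 and 252.0 CPM in iFTn-M4, and 200.3 and 207.7 CPM in PBS. Dgat2 rose in iFTn-MR4 (log2 fold change 0.62 ± 0.07, edgeR adjusted p = 0.000141) and was higher in iFTn-MR4 than in iFTn-R4 (0.86 ± 0.07, edgeR adjusted p = 0.000196). Against PBS it rose less in iFTn-M4 (0.27 ± 0.07) and fell in iFTn-R4 (-0.24 ± 0.07). The iFTn-M4 call was lost without either PBS library, and the iFTn-R4 call with the length correction and in limma-trend. Cdkn1a, the cell cycle inhibitor p21, fell in iFTn-MR4 (-1.82 ± 0.18, edgeR adjusted p = 4.76e-05) and iFTn-M4 (-1.39 ± 0.17, edgeR adjusted p = 0.000296). In iFTn-R4 Cdkn1a fell too (-0.58 ± 0.17), but that call was lost with the length correction, in limma-trend and with only the groups compared fitted. Wee1, a mitosis-delaying kinase gene with E-boxes known from mouse liver, had 11.9 and 12.5 CPM in iFTn-MR4, 18.3 CPM in both iFTn-R4 libraries, 19.1 and 18.8 CPM in iFTn-M4, and 21.2 and 18.9 CPM in PBS. Wee1 fell in iFTn-MR4 against PBS (-0.71 ± 0.11, edgeR adjusted p = 0.000495) and did not pass in iFTn-R4 (-0.13 ± 0.10) or iFTn-M4 (-0.08 ± 0.10). Pdk4, the kinase that turns off pyruvate oxidation, was 2.68-fold apart between the iFTn-R4 libraries, at 379.5 and 1018.5 CPM, and 2.1-fold between the iFTn-M4 libraries, at 169.0 and 354.4 CPM. In both groups replicate 2, the replicate with less Dbp, had more Pdk4.

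Per1 and Klf15 also answer to glucocorticoid hormone, which peaks daily and with stress, so 8 further glucocorticoid-responsive genes were read. Against PBS 2 rose and 3 fell in iFTn-MR4 (all genes: 24.6% up, 26.3% down). The counts were 2 up and 1 down in iFTn-R4 (all genes: 13.9% up, 15.4% down). They were 5 up and 1 down in iFTn-M4 (all genes: 19.8% up, 21.4% down). Median log2 fold changes of the 8 genes were -0.26, 0.10 and 0.46 in that order. Fkbp5, a chaperone partner of the hormone's receptor, had 24.1 and 24.6 CPM in iFTn-MR4, 54.5 and 68.9 CPM in iFTn-R4, 34.7 and 35.8 CPM in iFTn-M4, and 41.9 and 38.2 CPM in PBS. Its groups did not overlap, with iFTn-R4 highest and iFTn-MR4 lowest. Fkbp5 fell in iFTn-MR4 (log2 fold change -0.72 ± 0.12, edgeR adjusted p = 0.000872), rose in iFTn-R4 (0.62 ± 0.11, edgeR adjusted p = 0.0039) and did not pass in iFTn-M4 (-0.18 ± 0.11). Zbtb16, a transcription factor gene, rose in iFTn-R4 (1.29 ± 0.20, edgeR adjusted p = 0.002) and iFTn-M4 (1.27 ± 0.20, edgeR adjusted p = 0.00098). It rose less in iFTn-MR4 (0.64 ± 0.20), a call lost with the length correction, at 0.27. In iFTn-M4, where Per1 was high, Tsc22d3 (0.70 ± 0.19), Ddit4 (0.82 ± 0.19), Dusp1 (0.52 ± 0.12) and Sgk1 (0.39 ± 0.13) rose as well. Each of these 4 calls ended without PBS replicate 1 and without iFTn-M4 replicate 2, and that of Sgk1 also without iFTn-M4 replicate 1. Dusp1 rose also in iFTn-MR4 (0.56 ± 0.12), where Per1 was at -0.04 ± 0.19. Cebpd, of the same list, fell in iFTn-M4 (-0.95 ± 0.22), at -0.67 without PBS replicate 2 and -0.69 without iFTn-M4 replicate 1. The list thus did not move as a unit against PBS in any group. In iFTn-MR4 against iFTn-M4 its median log2 fold change was -0.58, with Per1 at -0.91. In iFTn-MR4 against iFTn-R4 the median was -0.66, with Per1 at 0.11. Of the 8 genes, 5 were higher in replicate 1 in iFTn-MR4, 0 in iFTn-R4, 1 in iFTn-M4 and 1 in PBS. The part of glucocorticoid signals in the Per1 level was not tested.

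Cirbp encodes a cold-inducible RNA-binding protein whose transcript follows body temperature and the clock. It had 48.5 and 54.3 CPM in iFTn-MR4, 31.9 and 19.4 CPM in iFTn-R4, 43.2 and 42.5 CPM in iFTn-M4, and 20.0 and 25 CPM in PBS. As with Dbp, both iFTn-MR4 and both iFTn-M4 libraries were high, and iFTn-R4 replicate 2 was below PBS while replicate 1 was not. Cirbp rose in iFTn-MR4 (log2 fold change 1.19 ± 0.19, edgeR adjusted p = 0.000799) and iFTn-M4 (0.93 ± 0.19, edgeR adjusted p = 0.00454), did not pass in iFTn-R4 (0.19 ± 0.20), and was higher in iFTn-MR4 than in iFTn-R4 (1.0 ± 0.19, edgeR adjusted p = 0.0053). Rbm3, the related cold-inducible gene, went the other way and fell in iFTn-MR4 (-1.02 ± 0.23, edgeR adjusted p = 0.00452), with 99.0 and 101.3 CPM there against 189.8 and 216.1 CPM in PBS. In iFTn-R4 Rbm3 fell too (-0.69 ± 0.22), but that call was lost in DESeq2, in limma-trend and with the length correction. In iFTn-M4 it did not pass (-0.50 ± 0.22). Against PBS in iFTn-MR4 the 2 temperature-responsive genes thus moved in opposite directions. Between the iFTn-R4 libraries both were higher in replicate 1, Cirbp 1.64-fold and Rbm3 1.58-fold, and in iFTn-R4 against iFTn-M4 neither passed (-0.74 ± 0.19 and -0.19 ± 0.22). The part of temperature was not tested.

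Likeness to Dbp was measured as Pearson's r of log2(TPM + 1) over the 8 libraries, for 10211 genes with a mean of at least 5 TPM, as a description with no test. Among the members r with Dbp was 0.891 for Nr1d1, 0.848 for Tef, 0.844 for Ciart, 0.814 for Per3, 0.802 for Hlf, 0.748 for Nr1d2, 0.313 for Per2, 0.277 for Per1 and -0.647 for Arntl. The 8 points share their groups and library depth. Outside the list, the 5 genes closest to Dbp were Ccl8 (0.949), a chemokine gene, and Timm21 (0.942), Zfp961 (0.941), Dot1l (0.932) and Abhd10 (0.931), of which Timm21 and Abhd10 encode mitochondrial proteins and Dot1l a histone methyltransferase. Ccl8 had 104.2 and 152.9 TPM in iFTn-MR4, 81.6 and 41.8 TPM in iFTn-R4, 121.8 and 88.2 TPM in iFTn-M4, and 63.6 and 85.5 TPM in PBS, so that it shared with Dbp the low level in iFTn-R4 replicate 2. The 5 most opposite were Dhx16 (-0.980), Mal (-0.967), Fuca2 (-0.963), Cldn5 (-0.962) and Rras (-0.957). Cldn5, the endothelial tight junction protein, had its highest level, 58.0 TPM, in the iFTn-R4 library with the least Dbp. Closest to Arntl were Brcc3 (0.961), Alpk2 (0.943), Slco3a1 (0.930), Ccdc163 (0.926) and Lyve1 (0.910), all highest in iFTn-R4 replicate 2.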

How the data were processed

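RNA of 8 heart libraries was sequenced after oligo-dT selection. Per the submitters' processing notes, HISAT2 2.1.0, Bowtie2 2.2.5 and RSEM 1.2.8 were used with the mouse genome GRCm38.p6. Expected counts from RSEM, which need not be whole, were deposited with TPM and FPKM values of the same genes, in a table for PBS (17051 genes) and one for the nanocages (17788 genes). Both tables were joined on gene ID, which left 16547 genes with a value in every library, and every deposited column of samples was used.

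Expected counts were rounded and fitted with edgeR 4.0.16 in R 4.3.3 (filterByExpr, TMM, quasi-likelihood, 8 libraries in 1 fit, 4 residual degrees of freedom, biological coefficient of variation 8.47%). Tests were 2-sided, with Benjamini-Hochberg adjustment over 13953 genes and a threshold of 0.05. The 6 comparisons were each nanocage against PBS and the 3 pairs of nanocages. Each standard error was obtained from the fold change (log2) and its F statistic. The fit was first tested on simulated counts with known changes. Levels are in CPM on TMM-scaled library sizes, and TPM serves for the order of genes, ratios within a library and correlations. TPM had been planned for levels too, but the median gene's log2 TPM was 0.11, 0.20 and 0.14 higher in iFTn-MR4, iFTn-R4 and iFTn-M4 than in PBS, which was seen afterwards. Effective lengths came from the ratio of counts to the authors' FPKM. A pseudocount of 1 was added to TPM on the log2 scale, and replicate distances used CPM + 0.1.

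Alternatives were DESeq2 1.42.0, limma-trend (limma 3.58.1) on log2(TPM + 1), scaling by library size, no filter on low counts, a replicate block, an offset for transcript length (a spline with 4 degrees of freedom), fits of only the groups compared, and leaving out each library. The clock genes and all other gene lists were chosen with earlier results of these data known. From those lists some of the genes past the threshold are named, not in every case those with the lowest adjusted p or the steadiest calls. The genes most like Dbp or Arntl are the 5 with the highest or lowest r among genes of at least 5 mean TPM. Single values of some genes of these lists are not reported here, and the counts of called genes include them.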

Additional observations from a re-analysis of the deposited data

How the results depend on the processing

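Of 900 log2 fold changes of the 10 clock genes recomputed under 15 other settings, 790 lay within 1 SE of the value reported, 110 moved more and no called one turned its direction. Leaving out an iFTn-R4 library moved most of them, 24 of 60 without replicate 1 and 23 without replicate 2. Genes called overall in edgeR, on which the shares beside the member counts rest, were 7096 in iFTn-MR4, 4096 in iFTn-R4 and 5745 in iFTn-M4 against PBS, 51 in iFTn-MR4 against iFTn-M4, 3801 in iFTn-MR4 against iFTn-R4 and 827 in iFTn-R4 against iFTn-M4. With 1 library left out these ranged from 5067 to 7687, 2046 to 4069, 3580 to 6460, 2 to 614, 1624 to 4223 and 55 to 1395, in the same order. In iFTn-R4 against PBS the length offset gave 1957 and a fit of only the groups compared 2528. In iFTn-MR4 against iFTn-M4 DESeq2 gave 353, the replicate block 271, limma-trend 18 and a fit of only the groups compared 714, and in iFTn-R4 against iFTn-M4 that fit gave 206. Of the 17 other clock genes, 10, 5 and 8 were called in iFTn-MR4, iFTn-R4 and iFTn-M4 against PBS, 0 in iFTn-MR4 against iFTn-M4, 4 in iFTn-MR4 against iFTn-R4 and 1 in iFTn-R4 against iFTn-M4. With 1 library left out these ranged from 6 to 11, 2 to 6, 5 to 11, 0 to 0, 2 to 7 and 0 to 3. The count in iFTn-R4 against PBS was 3 with the length offset and 3 with only the groups compared, and that in iFTn-MR4 against iFTn-R4 was 2 with only the groups compared. Fits with fewer groups or libraries have fewer residual degrees of freedom, and the cause of the other shifts was not tested. Deviations of same-numbered libraries correlated between -0.0143 and 0.153 over the 6 pairs of groups, and not all were over 0.1, so the numbers were not taken to pair the libraries. Under the replicate block 9 of 10 clock genes were called in iFTn-M4 against PBS, 8 higher and 1 lower (Arntl), and 8 in iFTn-R4 against iFTn-M4, 7 lower and 1 higher (Arntl). With 2 libraries a group, differences in Dbp, Ciart and Arntl, with SEs of 0.31 to 0.35, were hardest to detect.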
